A study of Arabidopsis thaliana with 72 samples.

Results

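Jasmonate biosynthesis was followed at the transcript level through 9 Arabidopsis genes: *LOX2* (AT3G45140), *LOX3* (AT1G17420), *LOX4* (AT1G72520), *AOS* (AT5G42650), *AOC1* (AT3G25760), *AOC2* (AT3G25770), *OPR3* (AT2G06050), *OPCL1* (AT1G20510) and *JAR1* (AT2G46370). They were chosen by gene identifier, as enzymes of the pathway, out of 27655 genes in the count table. Earlier results of these data were known when they were chosen. All 9 passed the filter on low counts, which kept 21042 genes. The series asked which transcripts change within minutes to hours of N-hydroxy-pipecolic acid (NHP), a signal of systemic acquired resistance, and whether salicylic acid made by *ICS1* or endogenous NHP made by *FMO1* is needed. Seedlings of 3 genotypes in the Col-0 ecotype were grown in liquid MS medium in six-well plates and treated at 10 days post germination. The mutants were *sid2-2*, which lacks a working *ICS1*, and *fmo1-1*, which lacks a working *FMO1*, and the wild type was Col-0. Each genotype was given 0.5 mM NHP or mock (MS medium alone) and harvested after 15 or 30 min or after 3 or 6 h. There were 3 libraries in each of the 24 groups and 72 in all. Each library held poly(A) RNA of whole seedlings pooled from 1 well, so that every value below is a mean over shoot and root. For all groups the medium had been replaced and the plants left to acclimate before treatment.

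Jasmonates are oxylipin hormones made from linolenic acid of plastid membranes, best known for their part in wound and herbivore responses and in stamen development. In the plastid, 13-lipoxygenases (LOX), allene oxide synthase (AOS) and allene oxide cyclases (AOC) convert the fatty acid to OPDA. In the peroxisome OPDA is reduced by OPR3, activated to a CoA ester by ligases such as OPCL1 and shortened by beta-oxidation to jasmonic acid, which JAR1 joins to isoleucine in the cytosol. The conjugate is the form that the COI1-JAZ receptor perceives, and transcripts of most of these enzymes rise after wounding through the transcription factor MYC2 and its relatives.

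Reads assigned to genes ranged from 19618319 to 28382977 per library. *ICS1* had a median of 20 reads (9 to 36) in the 24 *sid2-2* libraries, against 237.5 (152 to 344) in the 24 Col-0 libraries, and *FMO1* had a median of 4 reads (1 to 13) in *fmo1-1*, against 60.5 (39 to 120) in Col-0. One *sid2-2* library, 30 min NHP replicate 3, carries 30 min in its title and 180 min in another label, and was kept under its title. By the study's setup table, NHP and mock libraries of Col-0 and of *sid2-2* lie in different batches at the first 3 times, and those of *sid2-2* also at 6 h, so that treatment and batch cannot be told apart there. At 6 h in Col-0 1 NHP and 1 mock library share a batch. No batch is listed for *fmo1-1*. The table does not say what a batch was. In mock libraries the summed CPM of 5 shoot markers had a median of 44984 in *sid2-2* (32125 to 46819), 30685 in *fmo1-1* (21919 to 37555) and 31178 in Col-0 (21539 to 34489), and that of 7 root markers 4229, 4435 and 4486 in the same order. All 5 shoot and 7 root markers passed the filter on low counts. Rapid touch and wound genes (9 listed) summed to 220 to 889 CPM in *sid2-2*, 230 to 354 CPM in *fmo1-1* and 205 to 372 CPM in Col-0.

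Scaled per kilobase of exon, the pathway ran over a wide range of levels in these seedlings. *LOX2* was at a median of 203 CPM per kb over the 72 libraries (67.7 to 356). *AOC2* followed at 97.4 (51.6 to 274), *AOS* at 57.5 (37.6 to 91.6), *AOC1* at 34.2 (22.1 to 52.9) and *OPR3* at 23.2 (16.8 to 40.3). *JAR1* at 18.3 (16.4 to 22.0) and *OPCL1* at 18.2 (12.6 to 25.0) were level with each other, and *LOX3* at 6.51 (4.51 to 9.48) and *LOX4* at 2.77 (1.42 to 9.94) were the lowest. The lowest count of any member in any library was 105, for *LOX4*. In the rest of the text CPM is scaled to library size and not to gene length, and is compared only within a gene.

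**Figure D1:**
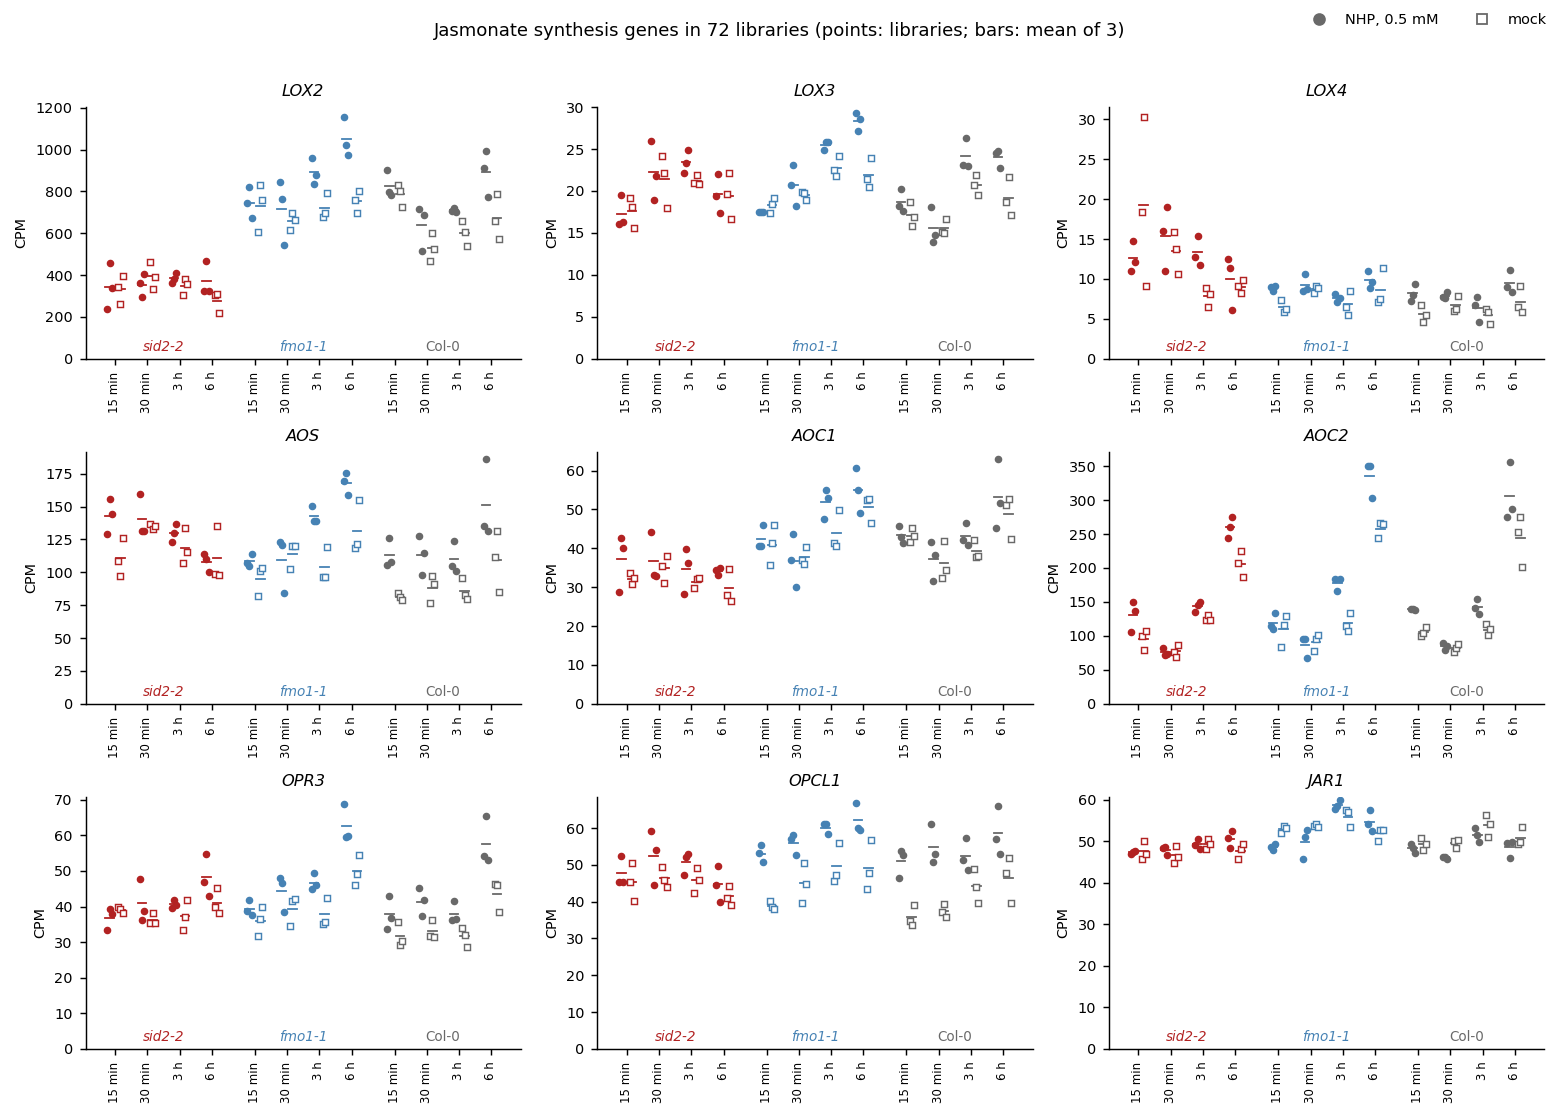
Each panel gives 1 gene in CPM on the vertical axis and the 72 libraries on the horizontal axis, by genotype (*sid2-2*, *fmo1-1*, Col-0) and time. Filled circles are NHP libraries, open squares mock libraries and bars the mean of 3. *LOX2* sits low in *sid2-2*, *LOX4* high in *sid2-2*, *AOC2* high at 6 h in each genotype, and *JAR1* is nearly flat.

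The group means of a gene differed most for *AOC2* (4.40-fold between the highest and the lowest of 24 groups), *LOX2* (3.78-fold) and *LOX4* (3.52-fold), and least for *JAR1* (1.27-fold). *AOS* spanned 2.06-fold, *OPR3* 1.99-fold, *AOC1* 1.85-fold, *LOX3* 1.82-fold and *OPCL1* 1.73-fold. For 7 of the 9 genes the highest group was *fmo1-1* at 6 h of NHP. The exceptions were *LOX4*, highest in *sid2-2* at 15 min of mock, and *JAR1*, highest in *fmo1-1* at 3 h of NHP. When the 24 groups were ordered by mean, nearly all of the 23 neighbouring pairs overlapped in their libraries: 21 pairs for *AOC2*, 22 for *LOX2*, *LOX3* and *JAR1*, and 23 for the other genes.

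Stretches upstream of 4 members are shown: *LOX2* for its low level in *sid2-2*, *AOS* because it alone held a G-box, and *AOC1* and *AOC2* because they lie side by side and differ over time. They are the 250 bases before the annotated gene start, from RefSeq on TAIR10.1, read on the strand of the gene. Capitals mark CACGTG, the G-box, in *AOS*, the related CATGTG in *LOX2* (read as CACATG on its strand), and in *AOC1* and *AOC2* a run of 19 bases that both contain.
LOX2, chr3:16524995-16525244, plus strand: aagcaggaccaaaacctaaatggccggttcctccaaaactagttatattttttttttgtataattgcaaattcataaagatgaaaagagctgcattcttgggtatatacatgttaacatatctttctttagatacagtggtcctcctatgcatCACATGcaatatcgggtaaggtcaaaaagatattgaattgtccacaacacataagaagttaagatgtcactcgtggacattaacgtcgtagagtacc
AOS, chr5:17099596-17099845, minus strand: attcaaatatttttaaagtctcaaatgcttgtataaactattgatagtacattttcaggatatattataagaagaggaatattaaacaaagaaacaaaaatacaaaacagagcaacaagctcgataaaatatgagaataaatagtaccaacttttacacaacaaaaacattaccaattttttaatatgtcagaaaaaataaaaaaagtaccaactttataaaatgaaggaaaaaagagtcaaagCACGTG
AOC1, chr3:9403529-9403778, plus strand: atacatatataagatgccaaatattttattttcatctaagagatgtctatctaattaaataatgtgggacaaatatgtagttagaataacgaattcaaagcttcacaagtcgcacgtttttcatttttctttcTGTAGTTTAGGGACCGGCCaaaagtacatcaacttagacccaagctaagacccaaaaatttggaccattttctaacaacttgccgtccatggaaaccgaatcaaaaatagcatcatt
AOC2, chr3:9406419-9406668, plus strand: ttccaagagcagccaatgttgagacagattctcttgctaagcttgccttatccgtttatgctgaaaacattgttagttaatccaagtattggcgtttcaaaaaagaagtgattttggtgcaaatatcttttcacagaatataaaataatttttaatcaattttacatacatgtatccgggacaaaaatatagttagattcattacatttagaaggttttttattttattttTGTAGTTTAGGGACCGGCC
The shared run TGTAGTTTAGGGACCGGCC begins 117 bases before the start of *AOC1* and 19 bases before that of *AOC2*. On either strand CACGTG was found in 1 of the 9 upstream windows (*AOS*, 6 bases before the start), against 6.49% of the windows of 27443 protein-coding genes. CATGTG was found in 3 of 9 (*LOX2* at 97, *LOX3* at 65 and *JAR1* at 138 bases before the start), against 11.1%. The GCC-box core GCCGCC was in none of the 9 (1.87% of all), TTGAC in 5 (44.9%) and TGACG in 1 (18.6%), the last overlapping a TTGAC in *LOX4*. These matches describe letters in a window and were not tested as sites.

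*AOC1* (chr3:9403779-9405338) and *AOC2* (chr3:9406669-9408071) are neighbours on the plus strand, 1330 bases apart. Their coding sequences are 90.3% identical, and those of *LOX3* (chr1:5977323-5981521) and *LOX4* (chr1:27308513-27312756) 81.1%. In none of the 9 genes did a stretch of 100 transcript bases recur exactly in another gene, and no annotated gene overlaps them. How reads that fit several places were counted is not given in the sources used here, so a small exchange of reads between *AOC1* and *AOC2* was not tested. The other members are *LOX2* (chr3:16525245-16529352, plus), *AOS* (chr5:17097564-17099595, minus, 1 exon), *OPR3* (chr2:2359114-2362375, minus), *OPCL1* (chr1:7103362-7106121, minus) and *JAR1* (chr2:19033586-19036683, plus).

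NHP was first compared with mock in each genotype and at each time. Of 108 such tests on the 9 genes, the estimate was higher with NHP in 90, and 12 passed edgeR's quasi-likelihood test at a Benjamini-Hochberg adjusted p of 0.05, all of them higher with NHP. The 9 genes were read from the same libraries, so these tests are not independent and the counts are a description. In Col-0 the called genes were *OPCL1* at 15 min, against 0.917% of all genes called higher, *OPCL1* at 30 min (0.779%), and *LOX3*, *AOS*, *OPR3* and *OPCL1* at 6 h (3.03%). At 3 h none of the 9 was called in Col-0 (1.69% of all genes), although 5 had an unadjusted p under 0.05. DESeq2 on all libraries called none at 3 h either, and DESeq2 on the 6 libraries alone called 3. The median log2(FC) of the 9 genes was 0.25, 0.24, 0.24 and 0.34 at the 4 times in order. The median over all genes lay within 0.025 of 0 at each time. Over all genes, 7.28% to 12.1% had every NHP library above every mock library in a given genotype and time. That share is given beside the separations named below between NHP and mock. None was counted for comparisons between genotypes or between times.

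In *fmo1-1* the called genes were *OPCL1* at 15 min (1.29% of all genes called higher), *AOC2* at 3 h (2.16%), and *LOX3* and *OPCL1* at 6 h (2.64%). None was called at 30 min (0.946%), where 2 had an unadjusted p under 0.05, DESeq2 on all libraries called 0 and DESeq2 on the 6 libraries called 1. In *sid2-2* *AOC2* was called at 15 min (2.45%) and *LOX4* at 3 h (5.79%). None was called at 30 min (0.699%; 0 at an unadjusted p under 0.05 and 0 by either DESeq2 fit) or at 6 h (4.94%; 3 unadjusted, 0 by DESeq2 on all libraries and 1 on the 6 libraries). The 12 called changes lay between a log2(FC) of 0.33 and 0.76. Root markers were called lower with NHP in 13, 14 and 15 of 28 tests in *sid2-2*, *fmo1-1* and Col-0. Of all genes 1.15% to 7.23%, 1.76% to 2.66% and 1.24% to 3.79% were called lower at a time, in the same order. Touch and wound genes were called higher in 10, 4 and 7 of 36, beside 0.699% to 5.79%, 0.946% to 2.64% and 0.779% to 3.03% of all genes. The part of either list in the values of the 9 genes was not tested.

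**Figure D2:**
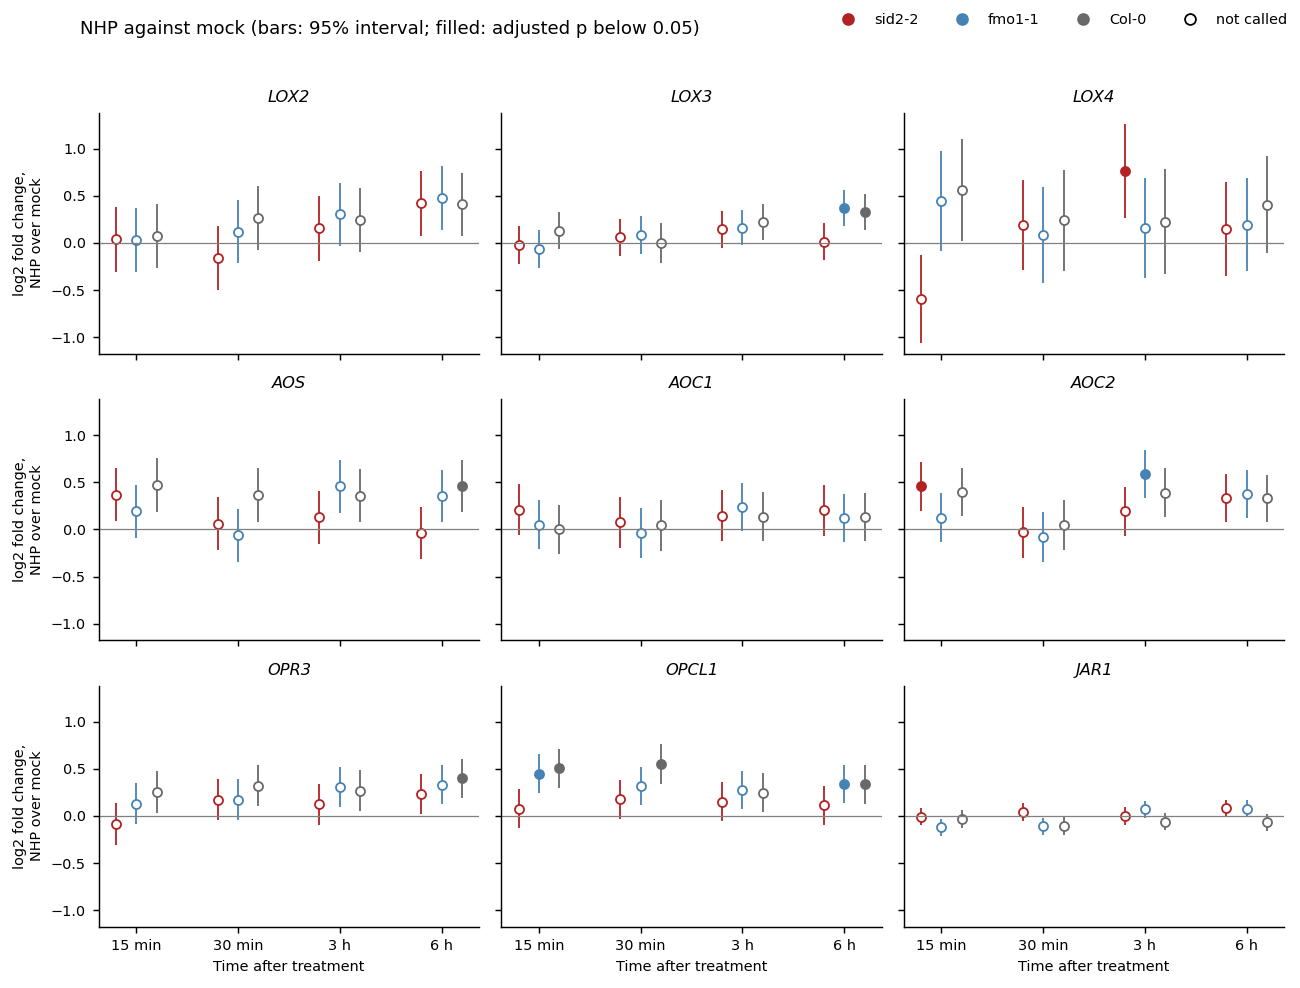
The log2 fold change of NHP over mock is on the vertical axis and the time after treatment on the horizontal axis, with 1 panel per gene and 1 colour per genotype. Bars are 95% intervals of the fit and filled points passed an adjusted p of 0.05. Most points lie above 0, *OPCL1* has the most filled points (5 of 12) and the points of *JAR1* lie near 0.

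Averaged over the 4 times, 1 member was called higher with NHP in *sid2-2* (4.4% of all genes called higher), 4 in *fmo1-1* (4.82%) and 5 in Col-0 (4.82%). *AOC2* was called in all 3 genotypes, with a log2(FC) of 0.24 in *sid2-2* (adjusted p = 0.0128), 0.25 in *fmo1-1* (adjusted p = 0.00672) and 0.29 in Col-0 (adjusted p = 0.00129). *OPCL1*, *OPR3* and *AOS* were called in *fmo1-1* and Col-0. *LOX3* was called in Col-0 alone, at 0.17 (adjusted p = 0.0177), and no longer without Col-0 30 min NHP replicate 1 (adjusted p 0.0602). Its *fmo1-1* average was called in a fit of the 48 *fmo1-1* and Col-0 libraries (0.14, adjusted p = 0.0165) and with a replicate block (0.0485). It was also called without either *fmo1-1* 30 min NHP replicate 3 (0.0268) or *fmo1-1* 6 h mock replicate 3 (0.0361). The fit of 48 libraries called the *fmo1-1* average of *LOX2* as well (adjusted p = 0.0218).

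The responses themselves were then compared between genotypes. In none of the 36 tests per mutant did a member's NHP response differ from that of Col-0 by edgeR's quasi-likelihood test, while over all genes 0%, 0.204%, 2.17% and 1.06% were called at the 4 times for *sid2-2* and 0.181%, 0%, 0.00475% and 0% for *fmo1-1*. For *sid2-2* 8 of the 36 had an unadjusted p under 0.05, with the lowest adjusted p of 0.227 for *AOS* at 6 h (-0.50, 95% interval -0.89 to -0.10), and DESeq2 called none. For *fmo1-1* 3 of 36 did, with the lowest adjusted p of 0.714 for *AOC2* at 15 min, and DESeq2 again called none. Averaged over the times no member was called either (0.242% of all genes for *sid2-2*, 0.0238% for *fmo1-1*). The average difference for *OPCL1* between *sid2-2* and Col-0 was -0.28 (95% interval -0.43 to -0.13, adjusted p = 0.0854), and DESeq2 called it with an adjusted p of 0.0185. A call in one genotype that is missing in another is therefore not shown to be a difference between them.

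Mock libraries were also compared between genotypes. Where libraries are said below not to overlap between genotypes, no share over all genes was counted. Of all genes 25.6% to 36.6% were called either way between *sid2-2* and Col-0 at a time. Col-0 and *sid2-2* were grown in separate plates, so that genotype and plate cannot be told apart. Their mock libraries share a batch at 15 min and in part at 6 h, while at 30 min and 3 h they lie in different batches, and genotype and batch cannot be told apart at those 2 times. In *sid2-2* 9 of 36 tests were called higher than Col-0 and 6 lower, with *LOX2* among the lower and *LOX4* among the higher genes. At 15 min 4 genes were higher (against 17.5% of all genes) and 2 lower (13.9%), at 30 min 4 higher (13.3%) and 0 lower (12.3%), at 3 h 1 higher (20.2%) and 2 lower (16.4%), and at 6 h 0 higher (18.8%) and 2 lower (12.6%). In *fmo1-1* none of 36 was called, 7 had an unadjusted p under 0.05 and DESeq2 called none. The lowest adjusted p was 0.254 for *LOX3* at 30 min, and 0.561%, 0.299%, 0.0665% and 0.0713% of all genes were called at the 4 times. Averaged over the times, 5 members were called higher (29% of all genes) and 3 lower (28.2%) in *sid2-2*, and 3 higher (1.47%) in *fmo1-1*. The *sid2-2* averages of *LOX3* (0.14), *OPR3* (0.15) and *OPCL1* (0.13) were called near the threshold, and leaving out any of several libraries took them past it. The call was lost for *LOX3* without any 1 of Col-0 15 min mock replicate 2, Col-0 3 h mock replicate 3, Col-0 6 h mock replicate 3, *sid2-2* 30 min mock replicate 1 and *sid2-2* 6 h mock replicate 2 (adjusted p 0.0524 to 0.0668). It was lost for *OPR3* without any 1 of Col-0 15 min mock replicates 2 and 3, Col-0 3 h mock replicate 3, Col-0 6 h mock replicate 3, *sid2-2* 3 h mock replicate 3 and *sid2-2* 6 h mock replicate 2 (adjusted p 0.0503 to 0.0728). For *OPCL1* it was lost without any 1 of Col-0 15 min mock replicates 1 and 2, Col-0 3 h mock replicates 2 and 3, Col-0 30 min mock replicate 3, Col-0 6 h mock replicate 3, *sid2-2* 15 min mock replicate 2, *sid2-2* 3 h mock replicate 2, *sid2-2* 30 min mock replicate 1 and *sid2-2* 6 h mock replicate 2 (adjusted p 0.0521 to 0.116).

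**Figure D3:**
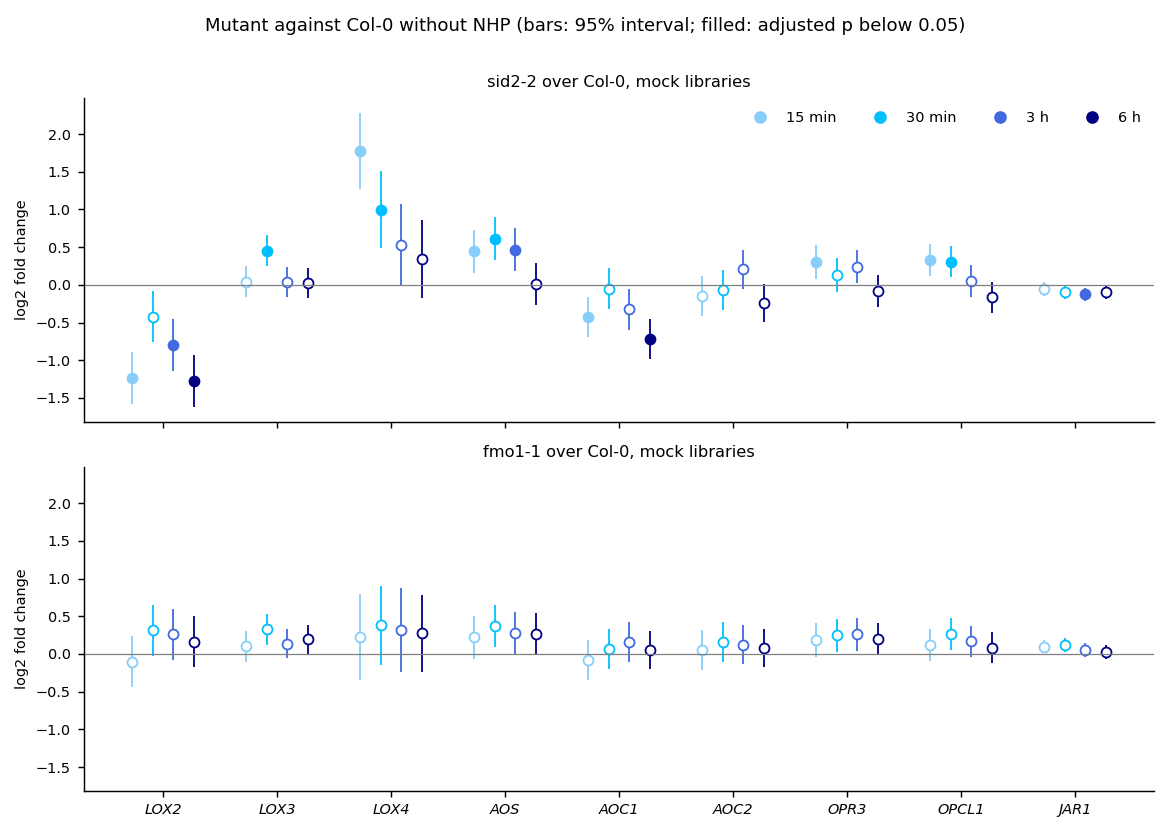
The log2 fold change of *sid2-2* over Col-0 (upper panel) and of *fmo1-1* over Col-0 (lower panel) in mock libraries is on the vertical axis for each gene, with 1 shade per time. Bars are 95% intervals and filled points passed an adjusted p of 0.05. In *sid2-2* the filled points of *LOX2* and *AOC1* lie below 0 and those of *LOX4* and *AOS* above 0, and in *fmo1-1* no point is filled.

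*LOX2*, the chloroplast 13-lipoxygenase that makes most of the jasmonate of wounded leaves, was called lower in *sid2-2* mock libraries than in those of Col-0 at 3 of the 4 times. After 15 min of mock it was at 342, 263 and 398 CPM in *sid2-2*, against 832, 800.4 and 723 CPM in Col-0. At 3 h it was at 304, 379.7 and 355 CPM, against 659, 606 and 539 CPM, and at 6 h at 304, 309 and 220.3 CPM, against 657, 785 and 575 CPM. At each of these times every *sid2-2* library lay below every Col-0 library. Of all genes 13.9%, 16.4% and 12.6% were called lower at these times, and the share that lay apart was not counted. The log2(FC) was -1.23 ± 0.18 at 15 min (SE; adjusted p = 2.52e-07), -0.80 ± 0.17 at 3 h (adjusted p = 2.45e-04) and -1.27 ± 0.18 at 6 h (adjusted p = 1.11e-07). At 30 min *LOX2* was at 460.4, 335 and 392 CPM in *sid2-2*, against 465, 602 and 522 CPM in Col-0, a log2(FC) of -0.42 that did not pass the test (adjusted p = 0.0673) but did without *sid2-2* 30 min mock replicate 1 (adjusted p 0.0395). At this time the mock mean of Col-0 (530 CPM) was the lowest of the Col-0 groups and that of *sid2-2* (396 CPM) the highest of the *sid2-2* groups. The libraries did not overlap here either. Averaged over the times *LOX2* fell by 0.93 on the log2 scale in *sid2-2* (95% interval -1.10 to -0.76, adjusted p = 4.78e-13), and the 3 calls at single times held without any 1 library. At 15 min the mock libraries of both genotypes share batch 1 of the setup table, while at 3 h, as at 30 min, they share none. At 6 h the 3 *sid2-2* mock libraries share batch 8 with Col-0 replicate 3, whose *LOX2* was at 575 CPM.

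The low *LOX2* of *sid2-2* was also seen in the NHP libraries, at 324, 466 and 326 CPM at 6 h, against 912, 991 and 773 CPM in Col-0. Over both treatments and all times the 24 *sid2-2* libraries lay between 220 and 466 CPM. Only 1 Col-0 library, 30 min mock replicate 1 at 465 CPM, and no *fmo1-1* library fell to that range. The shoot markers were called higher in *sid2-2* than in Col-0 in 19 of 20 tests (13.3% to 20.2% of all genes at a time). Root markers were called lower in 18 of 28 (12.3% to 16.4%), so that *LOX2* and the shoot markers moved in opposite ways. The part of either in the *LOX2* values was not tested, and in whole seedlings fewer cells of a type and less RNA per cell cannot be told apart.

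**Figure D4:**
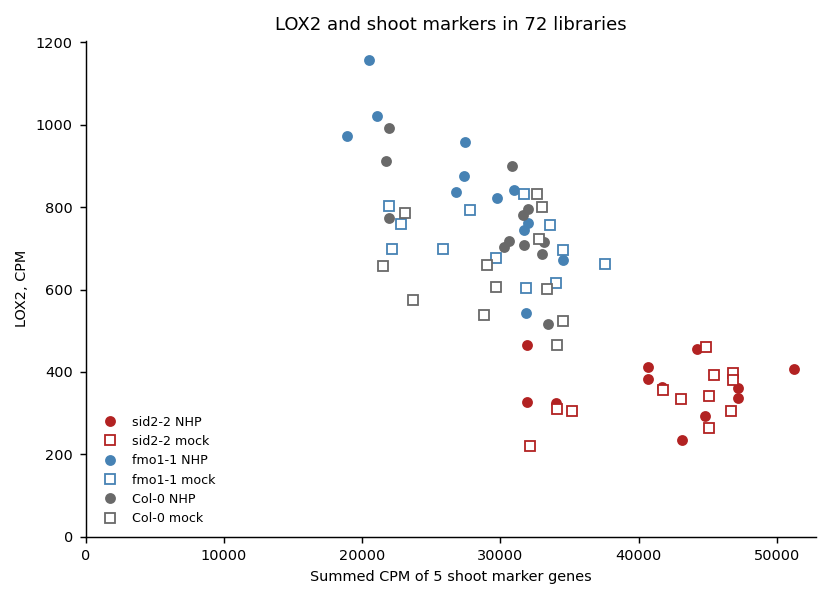
*LOX2* in CPM is on the vertical axis and the summed CPM of 5 shoot marker genes on the horizontal axis, both from 0, with 1 point per library. Filled circles are NHP and open squares mock libraries, coloured by genotype. The *sid2-2* libraries lie low and mostly to the right, with *LOX2* at 220 to 466 CPM, while *fmo1-1* and Col-0 overlap. Marker sums overlap in part, in mock at 32125 to 46819 in *sid2-2*, 21919 to 37555 in *fmo1-1* and 21539 to 34489 in Col-0.

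With NHP *LOX2* was higher in 11 of 12 comparisons but called in none. The largest estimate was in *fmo1-1* at 6 h, with 1157, 1021 and 973 CPM with NHP, against 760.0, 698 and 803 CPM in mock. All 3 NHP libraries lay above all 3 mock libraries, beside 11.8% of all genes. The log2(FC) of 0.48 (95% interval 0.14 to 0.82) had an adjusted p of 0.103. The adjusted p was 0.0319 in a fit of the 48 *fmo1-1* and Col-0 libraries and 2.30e-05 with DESeq2 on the 6 libraries. In Col-0 at 6 h it was 0.41 (95% interval 0.070 to 0.75, adjusted p = 0.157) and on average over the times 0.25 (adjusted p = 0.0528). DESeq2 (adjusted p = 0.0351) and its size factors (0.0481) called the average, as did edgeR without any 1 of Col-0 3 h mock replicate 1, Col-0 30 min NHP replicate 2, Col-0 30 min mock replicate 2, Col-0 6 h NHP replicate 3 and Col-0 6 h mock replicate 2 (adjusted p 0.0273 to 0.048). In Col-0 mock seedlings *LOX2* was lower at 30 min than at 15 min, with a log2(FC) of -0.57 (adjusted p = 0.0229, 6.4% of all genes called lower), which was lost without any 1 of Col-0 15 min mock replicates 1 and 2 and Col-0 30 min mock replicates 1 and 3 (adjusted p 0.0639 to 0.123).

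*LOX3*, a second 13-lipoxygenase that acts with *LOX4* in stamen development, was called with NHP at 6 h. At that time in *fmo1-1* it was at 29.3, 27.1 and 28.6 CPM with NHP, against 21.4, 20.5 and 23.9 CPM in mock, and in Col-0 at 24.5, 24.8 and 22.8 CPM with NHP, against 18.7, 21.6 and 17.2 CPM in mock. In both genotypes the NHP libraries lay above the mock libraries without overlap, beside 11.8% of all genes in *fmo1-1* and 12.1% in Col-0. On the log2 scale the change was 0.37 ± 0.096 in *fmo1-1* (SE; adjusted p = 0.00975) and 0.33 ± 0.099 in Col-0 (adjusted p = 0.0286). The call in *fmo1-1* was lost without any 1 of *fmo1-1* 6 h NHP replicate 1 and *fmo1-1* 6 h mock replicates 1 and 2 (adjusted p 0.0516 to 0.0918). That in Col-0 was lost without any 1 of Col-0 6 h NHP replicates 1 and 2 and Col-0 6 h mock replicates 1 and 3 (adjusted p 0.0827 to 0.182), and in a fit of the 48 Col-0 and *sid2-2* libraries (adjusted p = 0.0548). In *sid2-2* at 6 h the NHP libraries were at 19.3, 22.1 and 17.4 CPM and the mock libraries at 19.6, 22.1 and 16.6 CPM, with full overlap and a 95% interval of the log2(FC) of -0.18 to 0.21.

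In mock *LOX3* rose in *sid2-2* relative to Col-0 at 30 min, at 24.1, 22.2 and 17.9 CPM, against 15.1, 15.0 and 16.6 CPM. Every *sid2-2* library lay above every Col-0 library (log2(FC) 0.45, adjusted p = 5.60e-04). In *fmo1-1* mock seedlings the average over the times was 0.19 above Col-0 (adjusted p = 0.0224, beside 1.47% of all genes called higher), a call lost without any 1 of Col-0 6 h mock replicate 3, *fmo1-1* 3 h mock replicate 3 and *fmo1-1* 6 h mock replicate 3 (adjusted p 0.0509 to 0.0619). Over time in mock, *LOX3* was called higher at 3 h than at 30 min in Col-0, by 0.41 (13.3% of all genes). It was also called higher at 30 min than at 15 min in *sid2-2*, by 0.28 (6.69%), which was lost without any 1 of *sid2-2* 15 min mock replicates 2 and 3 and *sid2-2* 30 min mock replicates 1 and 2 (adjusted p 0.0852 to 0.291).

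*LOX4*, the least abundant member, was the one whose highest group was a *sid2-2* group. After 15 min of mock it was at 18.4, 30.3 and 9.15 CPM in *sid2-2*, against 6.73, 4.57 and 5.51 CPM in Col-0. After 30 min it was at 15.9, 13.8 and 10.6 CPM, against 6.02, 6.26 and 7.84 CPM. All *sid2-2* libraries lay above all Col-0 libraries at both times, but the 3 *sid2-2* libraries at 15 min differed more than 3-fold among themselves. The estimate on the log2 scale was 1.77 ± 0.26 at 15 min (SE; adjusted p = 4.07e-07) and 1.00 ± 0.26 at 30 min (adjusted p = 0.00298), and both calls held without any 1 library. The touch and wound genes summed to 560, 889 and 341 CPM in the same 3 *sid2-2* libraries in the order of their replicates, against 256 to 270 CPM in Col-0, so that they stood in the order of *LOX4*. At 15 min 7 of the 9 touch and wound genes were called higher in *sid2-2*, beside 17.5% of all genes. Their part in the *LOX4* values was not tested. At 3 h and 6 h *LOX4* was at 8.90, 6.47 and 8.15 CPM and 9.10, 8.19 and 9.83 CPM in *sid2-2*, against 6.25, 5.82 and 4.34 CPM and 6.49, 9.06 and 5.90 CPM in Col-0. Neither difference passed the test (95% intervals -0.022 to 1.07 and -0.17 to 0.86).

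The NHP response of *LOX4* was called once, in *sid2-2* at 3 h, with 12.8, 15.4 and 11.7 CPM with NHP, against 8.90, 6.47 and 8.15 CPM in mock. The libraries did not overlap (12% of all genes), and the log2(FC) was 0.76 ± 0.26 (SE; adjusted p = 0.0378). The call was lost without any 1 of *sid2-2* 3 h NHP replicates 1 and 2 and *sid2-2* 3 h mock replicates 1, 2 and 3 (adjusted p 0.059 to 0.18), and in the fit of 48 libraries (adjusted p = 0.0802). At 15 min the estimate in *sid2-2* was -0.59, the only negative one of the 12 (adjusted p = 0.143). Without *sid2-2* 15 min mock replicate 3, the lowest of the 3 mock libraries, it was -0.94 (adjusted p = 0.00387), and the difference from the Col-0 response was -1.49 (adjusted p = 0.00716, against -1.15 and 0.265 with all libraries). Without mock replicate 2, the highest, the estimate was -0.12 (adjusted p = 0.885). In Col-0 at 15 min *LOX4* was at 7.27, 8.05 and 9.36 CPM with NHP, against 6.73, 4.57 and 5.51 CPM in mock, without overlap (9.3% of all genes). The log2(FC) there was 0.56 (adjusted p = 0.383, and 0.0355 with DESeq2 on the 6 libraries). In *sid2-2* mock seedlings *LOX4* was lower at 3 h than at 30 min by a log2(FC) of -0.77 (adjusted p = 0.0183, 13.4% of all genes called lower), a call lost without any 1 of *sid2-2* 3 h mock replicate 2 and *sid2-2* 30 min mock replicate 1 (adjusted p 0.0946 to 0.101).

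*AOS*, the cytochrome P450 that commits the lipoxygenase product to the jasmonate branch and the only enzyme of its kind in Arabidopsis, was higher with NHP in 10 of 12 comparisons. It was called in Col-0 at 6 h, with 135, 186 and 131 CPM with NHP, against 112, 132 and 85.4 CPM in mock. The highest mock library just overlapped the lowest NHP library, and the log2(FC) was 0.46 ± 0.14 (SE; adjusted p = 0.0352). The call was lost without any 1 of Col-0 6 h NHP replicate 2 and Col-0 6 h mock replicates 1 and 3 (adjusted p 0.0812 to 0.356), and with DESeq2 on the 6 libraries (adjusted p = 0.344). At 15 min the Col-0 libraries were at 105, 126 and 108 CPM with NHP, against 84.7, 81.5 and 78.7 CPM in mock, without overlap (9.3% of all genes). The log2(FC) of 0.47 did not pass edgeR's test (adjusted p = 0.0652), while DESeq2 called it (adjusted p = 0.0381 on all libraries and 3.69e-09 on the 6). In *fmo1-1* at 3 h *AOS* was at 150, 139 and 139 CPM with NHP, against 96.1, 96.1 and 120 CPM in mock, without overlap (9.75% of all genes). The fit reported did not call it. DESeq2 did (log2(FC) 0.46, adjusted p = 0.0349 on all libraries and 1.60e-06 on the 6), as did edgeR with a replicate block (0.0496). On average over the times the *AOS* estimate was 0.13 in *sid2-2* (95% interval -0.009 to 0.27, adjusted p = 0.279). It was 0.23 in *fmo1-1* (95% interval 0.095 to 0.37, adjusted p = 0.0221) and 0.41 in Col-0 (95% interval 0.27 to 0.55, adjusted p = 2.26e-05). The average in *fmo1-1* was lost without any 1 of *fmo1-1* 15 min mock replicate 1 and *fmo1-1* 30 min NHP replicate 1 (adjusted p 0.053 to 0.0572).

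Without NHP *AOS* was higher in *sid2-2* than in Col-0 during the first 3 h. At 30 min the *sid2-2* libraries were at 137, 133 and 136 CPM, against 76.5, 97.2 and 91.1 CPM in Col-0, and at 15 min at 109, 97.4 and 126 CPM, against 84.7, 81.5 and 78.7 CPM. The genotypes did not overlap at either time. The log2(FC) was 0.44, 0.61, 0.47 and 0.015 at the 4 times in order, with adjusted p of 0.0154, 9.97e-04, 0.00856 and 0.953. The call at 15 min was lost without any 1 of Col-0 15 min mock replicate 3 and *sid2-2* 15 min mock replicate 3 (adjusted p 0.0557 to 0.116) and that at 3 h without any 1 of Col-0 3 h mock replicate 3 and *sid2-2* 3 h mock replicate 2 (adjusted p 0.0545 to 0.0678), while that at 30 min held without any 1 library. In *fmo1-1* no single time was called, but the average over the times was 0.28 above Col-0 (adjusted p = 0.0171), a call lost without any 1 of Col-0 6 h mock replicate 3 and *fmo1-1* 6 h mock replicate 3 (adjusted p 0.051 to 0.0524).

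*AOC1* and *AOC2* encode cyclases that set the stereochemistry of OPDA, and lie side by side. *AOC2* was the member that moved most with time in mock seedlings. In Col-0 it was at 99.3, 104 and 113 CPM at 15 min, 76.3, 81.7 and 87.4 CPM at 30 min, 117, 101 and 109.9 CPM at 3 h and 254, 276 and 202 CPM at 6 h. All 3 libraries at 6 h lay above those of every earlier time, and the same held in *sid2-2*, where they were at 207, 225 and 186 CPM, and in *fmo1-1*, at 244, 266 and 265 CPM. How many of all genes were separated in this way was not counted. The log2(FC) of 6 h over 3 h was 0.71 in *sid2-2* (adjusted p = 3.96e-05, 9.63% of all genes called higher), 1.12 in *fmo1-1* (adjusted p = 2.66e-09, 5.95%) and 1.16 in Col-0 (adjusted p = 9.74e-10, 8.84%). At 3 h it was called higher than at 30 min as well, by 0.69 in *sid2-2* (15% of all genes), 0.38 in *fmo1-1* (13.1%) and 0.42 in Col-0. The call was lost in *fmo1-1* without any 1 of *fmo1-1* 3 h mock replicate 3 and *fmo1-1* 30 min mock replicate 1 (adjusted p 0.161 to 0.177) and in Col-0 without any 1 of Col-0 3 h mock replicate 1 and Col-0 30 min mock replicate 1 (adjusted p 0.0706 to 0.0735). The mean at 30 min lay below that at 15 min, at 77.7 against 95.2 CPM in *sid2-2*. It was at 91.2 against 109.7 CPM in *fmo1-1* and 81.8 against 105.5 CPM in Col-0. DESeq2 called this fall in Col-0 (log2(FC) -0.37, adjusted p = 0.0394), while the fit reported called it in no genotype. Mock libraries of different times lie mostly in different batches, so that batch and time after mock cannot be told apart. Between the same neighbouring times 8 listed clock genes were called higher in 28 and lower in 34 of 72 tests. Of all genes 4.07% to 15% were called higher and 5.09% to 14.8% lower in these comparisons. The part of the clock in the *AOC2* values was not tested. *AOC1* was not called between any neighbouring times, with a log2(FC) of 6 h over 3 h of -0.082 in *sid2-2*, 0.20 in *fmo1-1* and 0.31 in Col-0.

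**Figure D5:**
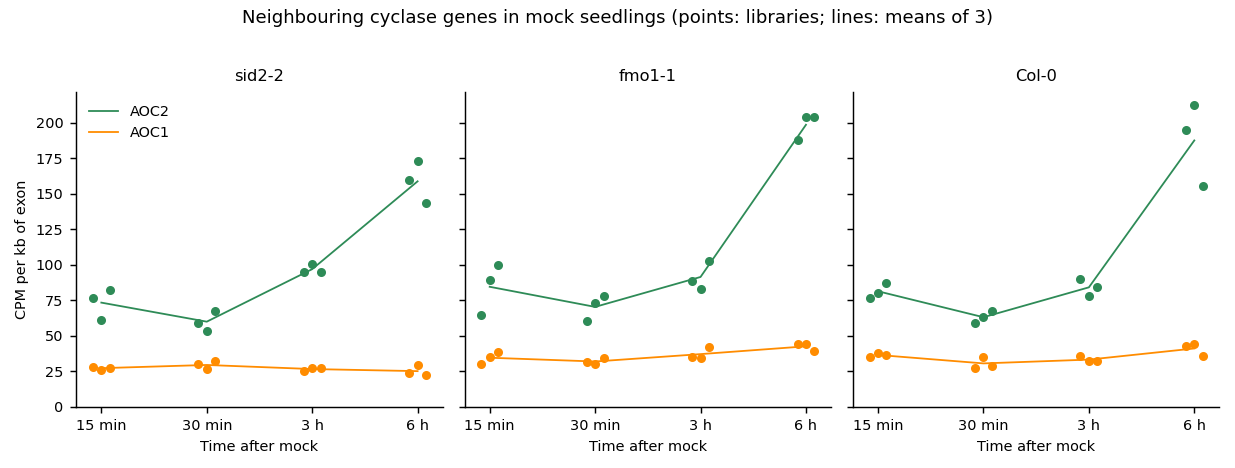
CPM per kb of exon is on the vertical axis, from 0, and the time after mock on the horizontal axis, with 1 panel per genotype. Points are libraries and lines join the means of 3. *AOC2* rises to 6 h in each genotype while *AOC1*, 1330 bases away, stays lower and flatter.

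With NHP *AOC2* was called higher in *fmo1-1* at 3 h, with 184, 167 and 184 CPM with NHP, against 115, 107 and 134 CPM in mock. The libraries did not overlap (9.75% of all genes), the log2(FC) was 0.59 ± 0.13 (SE; adjusted p = 0.00295), and the call held without any 1 library. In *sid2-2* it was called at 15 min, with 105, 150.4 and 137 CPM with NHP, against 99.6, 78.8 and 107 CPM in mock. These libraries overlapped, the log2(FC) was 0.46 ± 0.13 (adjusted p = 0.0332), and the call was lost without any 1 of *sid2-2* 15 min NHP replicates 2 and 3 and *sid2-2* 15 min mock replicates 1 and 2 (adjusted p 0.0643 to 0.258). In Col-0 the NHP and mock libraries did not overlap at 15 min (139, 140.2 and 138 CPM, against 99.3, 104 and 113 CPM) or at 3 h (142, 155 and 132 CPM, against 117, 101 and 109.9 CPM). Of all genes 9.3% and 9.45% were higher without overlap at these times. The log2(FC) of 0.40 at 15 min (adjusted p = 0.106) and 0.39 at 3 h (adjusted p = 0.0914) did not pass the test, while DESeq2 on the 6 libraries called both (adjusted p = 1.16e-09 and 5.67e-06) and the fit of 48 libraries that at 3 h (adjusted p = 0.0497). At 6 h *AOC2* was at 351, 351 and 303 CPM with NHP in *fmo1-1*, against 244, 266 and 265 CPM, without overlap (11.8% of all genes). In *sid2-2* it was at 244, 261 and 275 CPM, against 207, 225 and 186 CPM, also without overlap (11.7%). Neither was called in the fit reported. DESeq2 on the 6 libraries called both (adjusted p = 3.11e-09 and 5.95e-05), and a fit of 48 libraries that in *sid2-2* (0.0463). *AOC1* was higher with NHP in 11 of 12 comparisons and called in none, with estimates from -0.035 to 0.24.

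Between *sid2-2* and Col-0 in mock *AOC1* was called at 15 min and 6 h. At 6 h it was at 28.1, 34.7 and 26.4 CPM in *sid2-2*, against 51.2, 52.6 and 42.4 CPM in Col-0, and at 15 min at 33.6, 30.7 and 32.3 CPM, against 41.5, 45.1 and 43.2 CPM. No *sid2-2* library reached the Col-0 range at either time. *AOC1* fell by 0.71 on the log2 scale at 6 h (adjusted p = 4.12e-05) and by 0.43 at 15 min (adjusted p = 0.0131), and both calls held without any 1 library. At 3 h the estimate was -0.32 (adjusted p = 0.0579), which DESeq2 called (adjusted p = 0.0288). For *AOC2* no time was called, and the average over the times was -0.064 (95% interval -0.19 to 0.066). At 6 h *AOC2* was called lower without Col-0 6 h mock replicate 3 (adjusted p 0.0409).

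*OPR3*, the peroxisomal reductase of OPDA, was higher with NHP in 11 of 12 comparisons. At 6 h in Col-0 it was at 54.1, 65.3 and 53.1 CPM with NHP, against 46.3, 46.1 and 38.4 CPM in mock, without overlap (12.1% of all genes). The log2(FC) was 0.40 ± 0.11 (SE; adjusted p = 0.0126). It no longer passed the test without any 1 of Col-0 6 h NHP replicate 2 and Col-0 6 h mock replicate 3 (adjusted p 0.12 to 0.162). In *fmo1-1* at 6 h the libraries, at 68.8, 59.5 and 59.9 CPM with NHP and 46.1, 49.2 and 54.5 CPM in mock, did not overlap either (11.8% of all genes). The log2(FC) was 0.33 (adjusted p = 0.0544). This one was called by DESeq2 on all libraries (adjusted p = 0.0329) and on the 6 (4.53e-04), with DESeq2's size factors (0.0494), with the replicate block (0.0459) and without *fmo1-1* 6 h mock replicate 3 (0.0417). On average over the times *OPR3* was 0.31 higher on the log2 scale in Col-0 (adjusted p = 3.25e-05) and 0.24 in *fmo1-1* (adjusted p = 0.00179). In *sid2-2* the average was 0.11 (95% interval 0.002 to 0.22, adjusted p = 0.225).

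In mock, at 15 min *OPR3* was called higher in *sid2-2* than in Col-0, at 39.8, 39.3 and 38.2 CPM, against 35.8, 29.2 and 30.3 CPM. The libraries did not overlap (log2(FC) 0.30, adjusted p = 0.0333), and the call was lost without any 1 of Col-0 15 min mock replicates 2 and 3 and *sid2-2* 15 min mock replicates 1, 2 and 3 (adjusted p 0.0566 to 0.161). In *fmo1-1* its average over the times was 0.22 above Col-0 (adjusted p = 0.0152). At 6 h of mock *OPR3* was called higher than at 3 h, by 0.40 in *fmo1-1* and 0.47 in Col-0, and the call in *fmo1-1* was lost without any 1 of *fmo1-1* 3 h mock replicates 1 and 2 and *fmo1-1* 6 h mock replicate 3 (adjusted p 0.0501 to 0.0741).

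*OPCL1*, a peroxisomal ligase that activates the OPR3 product for beta-oxidation, was the member called most often with NHP, in 5 of 12 comparisons, and the only one higher in all 12. At 15 min in *fmo1-1* it was at 53.1, 55.3 and 50.8 CPM with NHP, against 40.2, 38.5 and 37.9 CPM in mock. In Col-0 at 15 min it was at 46.5, 53.7 and 52.6 CPM with NHP, against 34.8, 33.7 and 39.1 CPM in mock, and at 30 min at 61.0, 50.7 and 52.8 CPM, against 37.3, 39.3 and 35.9 CPM. All NHP libraries lay above all mock libraries in each of these 3 comparisons, beside 9.02%, 9.3% and 7.28% of all genes in the same order. The log2(FC) was 0.45 ± 0.11 in *fmo1-1* at 15 min (SE; adjusted p = 0.00584), 0.50 ± 0.11 in Col-0 at 15 min (adjusted p = 0.00194) and 0.55 ± 0.11 in Col-0 at 30 min (adjusted p = 5.43e-04). These 3 calls held without any 1 library, while at 15 and 30 min in Col-0 treatment and batch cannot be told apart. The batches of the *fmo1-1* libraries are not known.

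At 6 h *OPCL1* was at 66.8, 60.0 and 59.4 CPM with NHP, against 43.4, 47.7 and 56.7 CPM in mock, in *fmo1-1*, and at 56.9, 65.9 and 53.0 CPM with NHP, against 47.8, 51.9 and 39.7 CPM in mock, in Col-0. Neither pair of groups overlapped, beside 11.8% of all genes in *fmo1-1* and 12.1% in Col-0 that were higher without overlap. The log2(FC) was 0.33 in *fmo1-1* (adjusted p = 0.043), lost without any 1 of *fmo1-1* 6 h NHP replicates 1, 2 and 3 and *fmo1-1* 6 h mock replicates 1 and 2 (adjusted p 0.0609 to 0.265). In Col-0 it was 0.33 (adjusted p = 0.0368), lost without any 1 of Col-0 6 h NHP replicates 1 and 2 and Col-0 6 h mock replicates 1 and 3 (adjusted p 0.059 to 0.274). In *sid2-2* the NHP libraries were at 45.4, 52.4 and 45.3 CPM and the mock libraries at 45.4, 50.4 and 40.2 CPM at 15 min, and the groups overlapped at every time. The *sid2-2* average over the times was 0.13 (95% interval 0.025 to 0.23, adjusted p = 0.12), against 0.34 in *fmo1-1* and 0.41 in Col-0 (adjusted p = 1.62e-06 and 2.73e-08). The *sid2-2* average was called without *sid2-2* 30 min NHP replicate 2 (adjusted p 0.0458).

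*OPCL1* in mock already had a higher level in *sid2-2* than in the wild type at 15 min, at 45.4, 50.4 and 40.2 CPM, against 34.8, 33.7 and 39.1 CPM, and at 30 min, at 49.3, 45.7 and 44.1 CPM, against 37.3, 39.3 and 35.9 CPM. The genotypes did not overlap at either time, and the log2(FC) was 0.33 (adjusted p = 0.0139) and 0.31 (adjusted p = 0.0279). The call at 15 min was lost without any 1 of Col-0 15 min mock replicates 1 and 2 and *sid2-2* 15 min mock replicate 2 (adjusted p 0.058 to 0.104), and that at 30 min without any 1 of Col-0 30 min mock replicates 1 and 3 and *sid2-2* 30 min mock replicates 1 and 2 (adjusted p 0.0522 to 0.116).

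*JAR1*, the enzyme that conjugates jasmonic acid to isoleucine, was the flattest member, with all 72 libraries between 44.8 and 60.0 CPM. With NHP it was higher in only 4 of 12 comparisons and was called in none, with estimates from -0.12 to 0.082 on the log2 scale. The intervals were narrow, for example -0.12 to 0.060 in Col-0 at 15 min and -0.012 to 0.17 in *fmo1-1* at 6 h. On average over the times the Col-0 estimate was -0.067 (adjusted p = 0.0503), which was called without any 1 of Col-0 15 min NHP replicate 1, Col-0 15 min mock replicate 2, Col-0 3 h NHP replicate 1, Col-0 3 h mock replicate 2, Col-0 30 min mock replicate 2, Col-0 6 h NHP replicates 1 and 3 and Col-0 6 h mock replicates 1 and 2 (adjusted p 0.0245 to 0.0434). Among mock libraries at 3 h *JAR1* was below Col-0 in *sid2-2*, at 48.1, 50.5 and 49.3 CPM, against 56.4, 51.0 and 54.2 CPM. The libraries did not overlap and *JAR1* fell by 0.13 on the log2 scale (adjusted p = 0.0258), a call lost without any 1 of Col-0 3 h mock replicate 1 and *sid2-2* 3 h mock replicates 1 and 3 (adjusted p 0.0518 to 0.11).

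At 6 h in Col-0 a fit with the setup table's batch as a term was possible, since 1 NHP and 1 mock library share a batch. The estimates for the 4 called genes were then 0.51 for *LOX3*, 0.66 for *AOS*, 0.49 for *OPR3* and 0.51 for *OPCL1*, none of them called (adjusted p 0.229 to 0.542). Within that shared batch, Col-0 NHP replicate 1 against Col-0 mock replicate 3, the values were 24.5 against 17.2 CPM for *LOX3*, 135 against 85.4 CPM for *AOS*, 54.1 against 38.4 CPM for *OPR3* and 56.9 against 39.7 CPM for *OPCL1*. All 4 were higher in the NHP library, but they were picked by their call at 6 h in these same libraries. For each of them Col-0 mock replicate 3 was the lowest Col-0 mock library at 6 h. The pair is 1 library against 1 and was not tested.

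The other steps of jasmonate synthesis were read from 27 listed genes, of which 25 passed the filter (*DAD1* and *DGL*, plastid lipases, did not). With NHP 5 of 100 tests were called higher in *fmo1-1* (0.946% to 2.64% of all genes at a time), 9 higher (0.699% to 5.79%) and 3 lower (1.15% to 7.23%) in *sid2-2*, and 4 higher in Col-0 (0.779% to 3.03%). *AOC3*, another cyclase, had the largest changes in Col-0, at 28.2 CPM with NHP, against 16.7 CPM in mock at 15 min (log2(FC) 0.76, adjusted p = 3.29e-04), and at 34.7 CPM, against 20.5 CPM at 30 min (0.76, adjusted p = 2.18e-04). It rose in *fmo1-1* at the same times, by 0.79 and 0.51. In *sid2-2* the largest changes were at 3 h for *OPR1* (0.86, adjusted p = 0.0157) and *OPR2* (0.55, adjusted p = 7.02e-04), cytosolic relatives of *OPR3*, and at 6 h for *OPR2* (0.59, adjusted p = 2.43e-04) and the acyl-CoA oxidase *ACX1* (0.47, adjusted p = 2.45e-08). *OPR2* also rose at 6 h in *fmo1-1*, by 0.45, and in Col-0, by 0.46.

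Between *sid2-2* and Col-0 in mock, 13 of 100 tests of this list were called higher (13.3% to 20.2% of all genes at a time) and 45 lower (12.3% to 16.4%), and the median log2(FC) of its 25 genes lay between -0.16 and -0.12 at the 4 times, against medians over all genes between -0.012 and 0.015. *OPR1* was the lowest, at 41.1 CPM in *sid2-2*, against 203 CPM in Col-0 at 15 min (log2(FC) -2.32, adjusted p = 1.28e-10), and it was called lower at all 4 times. *OPR2* (-1.46 at 15 min, adjusted p = 6.28e-15) and *GH3.10*, a relative of *JAR1* (-1.46 at 15 min, adjusted p = 1.22e-18), were lower at all 4 times as well. The plastid desaturases *FAD7* and *FAD8*, which make linolenic acid, were called higher at all 4 times, by 0.51 and 0.63 at 3 h. In *fmo1-1* none of 100 tests was called.

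Jasmonate response genes were read from 16 listed genes, the *JAZ* repressors, *MYC2*, *VSP1* and *VSP2*. With NHP 8 of 64 tests were called higher and 0 lower in *fmo1-1*, 7 higher and 0 lower in *sid2-2*, and 8 higher and 1 lower in Col-0, beside the same shares of all genes called higher as for the other synthesis steps. Of all genes 1.24% to 3.79% were called lower in Col-0 at a time. *JAZ10* led in Col-0 at 15 min, at 11.4 CPM with NHP, against 3.72 CPM in mock (log2(FC) 1.63, adjusted p = 1.54e-07), followed by the transcription factor *MYC2* (1.42, adjusted p = 0.00732) and *JAZ1* (0.95, adjusted p = 5.27e-07). *JAZ10* also rose at 15 min in *fmo1-1*, 2.46-fold (adjusted p = 2.74e-05), and in *sid2-2*, 2.29-fold (adjusted p = 5.12e-04). The storage protein gene *VSP2* rose in *sid2-2* at 15 min, by 1.57 (adjusted p = 0.0101). In Col-0 the median log2(FC) of the list was 0.40 at 15 min and that of the 9 synthesis genes 0.25, against 0.0047 over all genes. Between *sid2-2* and Col-0 in mock 4 of 64 tests were called higher and 6 lower, together below the shares of all genes called (25.6% to 36.6% either way at a time), with *JAZ11* lower at all 4 times (by 0.50 at 15 min). None was called in *fmo1-1*.

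Across the 24 group means the 9 genes were related to different degrees. Pearson's r over their 36 pairs ranged from -0.56 to 0.87 with a median of 0.40, and 30 were positive. The highest was between *LOX2* and *AOC1* (0.87), which were both lower in *sid2-2*, and the lowest between *LOX2* and *LOX4* (-0.56). Within the 12 NHP groups and the 12 mock groups separately, *LOX2* and *AOC1* had r of 0.84 and 0.90, and *LOX2* and *LOX4* -0.69 and -0.64. *AOC2* and *OPR3* followed at 0.75, *AOS* and *OPCL1* at 0.74 and *AOS* and *OPR3* at 0.73. Group means share genotypes, times and libraries and are not independent, so these values are a description.

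Among all other genes, those most like the standardised mean of the 9 over the 24 groups were AT3G28940 and AT3G51450 (Pearson's r 0.867 for both), *GGP1* (0.865), AT5G50520 (0.862) and *PRXCB* (0.859). For single members the nearest gene was *GSH2* for *AOC2* (0.981), AT3G56200 for *LOX2* (0.958), *LSU3* for *AOC1* (0.933), AT3G51450 for *OPR3* (0.929) and *CST* for *LOX4* (0.912). For *LOX3* it was AT5G01720 (0.884), for *OPCL1* *DIR5* (0.844), for *JAR1* *AHL20* (0.825) and for *AOS* AT1G31550 (0.804). They were picked as the highest of all genes tested over the same 24 means.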

How the data were processed

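The deposited table held the authors' whole-number counts of reads per gene and library, without normalization. According to the labels and the methods of the study, FastQC was followed by trimming and by mapping to TAIR10 in CLC Genomics Workbench. For the counting rule, the annotation, the strand setting and reads with several possible places, the answer is not given in the sources used here. No line lacked a gene name and no column was left unused (0 and 0).

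Counts of all 72 libraries (24 groups of 3 wells, 48 residual degrees of freedom) were fitted with edgeR 4.0.16 (R 4.3.3, limma 3.58.1) after filterByExpr (minimum count 10, minimum total 15) and TMM scaling (factors 0.893 to 1.10), by robust quasi-likelihood tests with Benjamini-Hochberg adjustment over 21042 genes and calls at an adjusted p below 0.05. CPM uses the TMM-scaled totals, the SE comes from the fit, and 95% intervals are normal intervals around the estimate. Replicates are separate wells whose counts differed by more than sampling (chi-square per degree of freedom 2.61 to 15.0 over 72 pairs). Equal replicate numbers did not mark pairs, since same-numbered libraries deviated from their group means with a correlation of -0.085 to 0.11 over 29 comparisons.

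The members and lists were chosen with earlier results of these data known. Named genes are the 9 members, up to 3 called genes of a list and comparison by the size of their log2(FC), and the genes most like the mean of the members (5) or each member (1) by Pearson's r over group means of log2 CPM. *FAD7* and *FAD8* were named after their values were seen. Alternatives were DESeq2 1.42.0 on all libraries and on the 6 libraries of a comparison, its size factors, no filter, 48 libraries, a replicate block, a batch term at 6 h, and leaving out each library with the genes and the dispersion trend of the full fit kept. The fit was tested on simulated data. Tables and figures were made in Python 3.11.15 with numpy 2.4.6, matplotlib 3.10.9 and pandas 2.3.3. Upstream sequences and coordinates are from RefSeq on TAIR10.1, matched by gene identifier for 9 of 9 members. Member counts ran from 105 (*LOX4*) to 30014 (*LOX2*) per library, and counting error was not separated from the spread between wells.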

Additional observations from a re-analysis of the deposited data

Results flagged for a closer look

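None of the 9 synthesis genes had an NHP response in a mutant that differed from that in Col-0 by the test of the difference itself. Of the other synthesis steps 3 genes did, each in *sid2-2*, with 2 of 100 tests called higher and 1 lower. Over all genes 2.17% were called at 3 h and 1.06% at 6 h in this comparison, so the list is not set apart by these calls. *ACX1*, an acyl-CoA oxidase of beta-oxidation, was at 191 CPM with NHP, against 138 CPM in mock, in *sid2-2* at 6 h, and at 165 CPM with NHP, against 151 CPM in mock, in Col-0, a difference between the log2(FC) values of 0.35 (edgeR's quasi-likelihood test, adjusted p = 0.0266). *ACX2*, a second oxidase, was at 82.8 CPM with NHP, against 63.9 CPM in mock, in *sid2-2* at 6 h, and at 73.2 CPM with NHP, against 81.0 CPM in mock, in Col-0, a difference of 0.52 (adjusted p = 0.0346). *FAD7*, a plastid desaturase, was at 221 CPM with NHP, against 255 CPM in mock, in *sid2-2* at 3 h, and at 187 CPM with NHP, against 179 CPM in mock, in Col-0, a difference of -0.26 (adjusted p = 0.0224). Treatment and batch cannot be told apart for *FAD7* in either genotype, nor for *ACX1* and *ACX2* in *sid2-2*, whose NHP and mock libraries at 6 h lie in different batches.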

How the results depend on the processing

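Of 6399 tests of the 9 genes under an alternative, 6220 kept their call, 103 lost it, 76 gained one and 0 turned round. DESeq2 on only the 6 libraries of a comparison called 5 tests of NHP against mock in *sid2-2* (2 in the fit reported), 12 in *fmo1-1* (4) and 13 in Col-0 (6), all higher. With a batch term 0 genes were called at 6 h in Col-0 (4 without it). DESeq2 on all libraries called 1 average difference between the NHP responses of *sid2-2* and Col-0 (0 in the fit reported), *OPCL1* at -0.28. The cause of these changes was not tested. Leaving out 1 library gave 1 to 3 calls for NHP against mock in *sid2-2*, 2 to 5 in *fmo1-1* and 2 to 6 in Col-0, and for the averages over the times 1 to 2, 3 to 6 and 4 to 7. It gave 0 to 1 for the difference in response between *sid2-2* and Col-0 (averages 0 to 0), 0 to 0 for *fmo1-1* (averages 0 to 0), 13 to 16 for *sid2-2* against Col-0 in mock (averages 5 to 8), 0 to 0 for *fmo1-1* against Col-0 in mock (averages 1 to 4) and 10 to 13 for mock over time. With a replicate block the counts were those of the fit reported, except 6 for NHP in *fmo1-1* (4 without it) and 5 for its averages (4), and 1 of 29 comparisons had every library nearest its own number. The median log2(FC) of all genes stayed within 0.025 of 0 in each setting. Counts of reads were at least 105 for every member and library, lowest for *LOX4*, and the part of counting error in the spread between wells was not separated. Whether NHP or batch moved the Col-0 and *sid2-2* values cannot be told apart. In Col-0 at 6 h 1 batch holds both, but with only 1 library of each. For *fmo1-1* no batch is listed, so whether its NHP and mock libraries lie in different batches is not known.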
